A study of Solanum lycopersicum with 36 samples.

Results

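Salicylate-linked defence genes of tomato leaves are described here: 9 genes, chosen by a list of identifiers, all of which are among the 29285 genes of the deposited table. They are PAL5 and an isochorismate synthase for salicylate synthesis, NPR1 for its signalling, and 6 genes of the pathogenesis-related (PR) families: PR1a/P4, PR1b-like, the osmotin NP24, a chitinase and a pair of beta-1,3-glucanases. Salicylic acid (salicylate) is the plant hormone best known for defence against pathogens that feed on living cells. Leaves make it along a pair of routes: phenylalanine ammonia-lyase (PAL) opens the phenylpropanoid route from phenylalanine, and isochorismate synthase opens the chorismate route in the chloroplast. In Arabidopsis the salicylate-binding coactivator NPR1 then switches on genes for secreted PR proteins, and salicylate also accumulates in leaves of that species during long growth in the cold.

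The names are those of the list. No identifier of the table is paired with a name in the annotation used here, so the names were checked only by chromosome. The annotation places genes called P4, NP24-I, GluB, PAL5 and NPR1 on the chromosomes that the identifiers name. The chitinase Solyc10g055810 is listed as the acidic enzyme, but the annotation places CHI3, known as the acidic form, on another chromosome and CHI9, known as the basic form, on chromosome 10, so it is called a chitinase only. The annotation holds no gene under an isochorismate synthase symbol. The names of PR1b-like and of the glucanase Solyc01g060020 were not checked. GluB was compared with the glucanase Solyc01g008620 only, and both glucanase identifiers name the same chromosome, so the match does not tell them apart. PR1, PAL, chitinase, glucanase and osmotin genes have close relatives, and the sources used here do not say how reads shared between copies were counted, so each value is uncertain to that extent.

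The plants were Micro-Tom, a dwarf tomato cultivar that carries a mutation in a brassinosteroid synthesis gene in every group. Leaf poly(A) RNA was sequenced from plants a month old in 12 groups of 3 libraries. In one experiment the line SGT2ox was set against its own wild type at 0, 3 and 24 h. A second, independent experiment set the line SGT1ami against its own wild type at the same times. SGT stands for sterol glucosyltransferase, the enzyme family that attaches glucose to membrane sterols, and the suffixes were read as overexpression and as an artificial microRNA. Promoters and the number of independent lines are not in the labels. The plants were moved to 4 °C or kept at growth temperature, per the labels' protocols, but no library's labels give its temperature. Differences between times are therefore called changes with time, and cold, time of day and handling cannot be told apart in them. The replicates are labelled as biologically independent triplicates.

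Each library held 36602841 to 43742623 reads on genes, with 23650 to 24345 genes detected. Levels are normalised reads, that is, gene counts scaled by library so that a read is worth 0.763 to 1.28. Gene lengths are not in the files, so levels are compared between groups and never between genes. Solyc09g061860, noted as SGT2, averaged 26662, 54155 and 44063 normalised reads in SGT2ox at 0, 3 and 24 h, and 995, 1624 and 1372 in the wild type grown with it. Solyc06g007980, noted as SGT1, averaged 2435 and 2373 in SGT1ami at 0 and 3 h, and 7845 and 5948 in the matching wild type. The libraries labelled SGT1ami at 24 h averaged 6173, against 6685 in wild type at 24 h, a log2 fold change of -0.11 (adjusted p = 0.0168, limma). The identifier noted as SGT1 was thus near its wild type level in these 3 libraries, unlike at 0 and 3 h, and the reason was not tested. Their label could not be checked further, so every direction drawn from them is given as that of the libraries labelled SGT1ami at 24 h. Fitted log2 fold changes come from log2(normalised reads + 1), so they understate changes of low genes. A gene was called at an adjusted p under 0.05. In bulk leaf tissue, fewer cells of a type and less RNA per cell cannot be told apart.

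**Figure D1:**
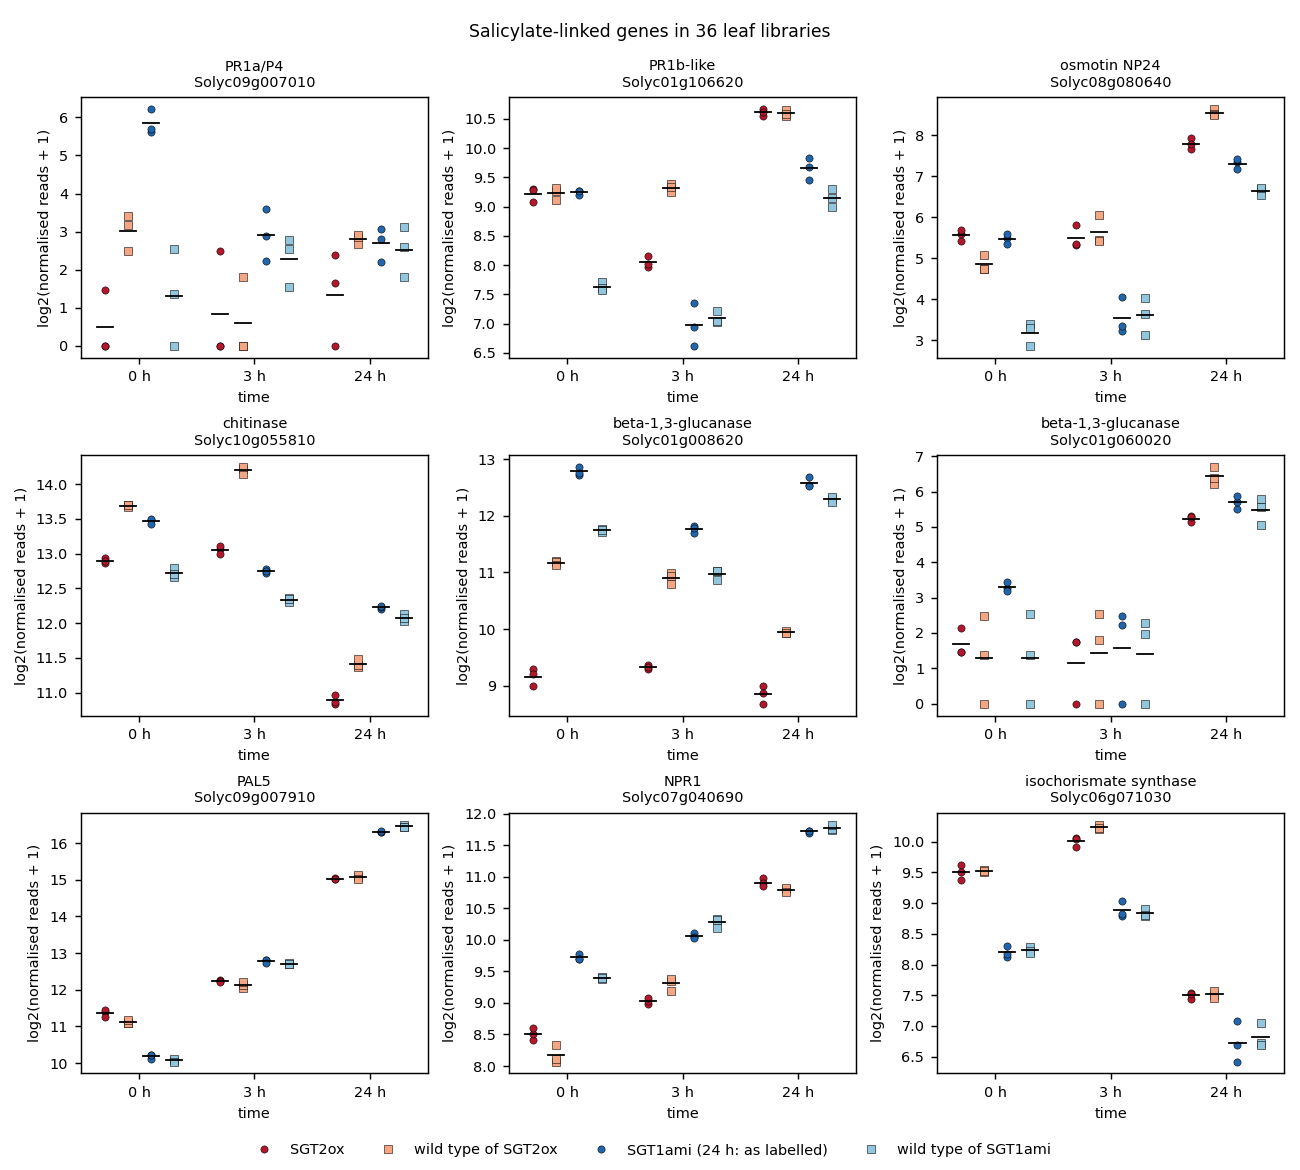
Normalised reads of the 9 genes in each of the 36 libraries, on a log2(value + 1) axis of its own in each panel, by time (0, 3, 24 h); points are libraries and horizontal bars are means of the log2 values of 3 libraries. PAL5 and NPR1 are highest at 24 h and the isochorismate synthase lowest at 24 h in all 4 genotype sets, while PR1a/P4 stands above 40 normalised reads in SGT1ami at 0 h only.

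Both genes of salicylate synthesis changed with time in every set. PAL5 (Solyc09g007910) rose at 3 h and again at 24 h in every genotype set, while the isochorismate synthase (Solyc06g071030) rose at 3 h and fell below its starting level by 24 h in every set. PAL5 read 2694, 2462 and 2793 (0 h), 4875, 4831 and 4747 (3 h) and 33408, 33609 and 32932 (24 h) in SGT2ox. The wild type grown beside it read 2192, 2163 and 2321 (0 h), 4192, 4459 and 4749 (3 h) and 34197, 35627 and 32946 (24 h). All values at 24 h lay above all values at 3 h, and these above all at 0 h, in both genotypes. PAL5 at 24 h against 0 h was 12.6-fold higher in SGT2ox, with a log2 fold change of 3.65 (limma SE 0.05, adjusted p = 2.59e-29), and 15.4-fold higher in its wild type, with 3.94 (limma SE 0.05, adjusted p = 5.68e-30). By 3 h PAL5 was 1.82-fold higher in SGT2ox and 2.01-fold higher in its wild type than at 0 h.

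In the second experiment PAL5 started lower and ended higher. It read 1102, 1187 and 1189 (0 h), 7191, 7188 and 6771 (3 h) and 81102, 80498 and 81912 (24 h) in the libraries labelled SGT1ami. The wild type of SGT1ami read 1071, 1109.7 and 1052 (0 h), 6685, 6802 and 6643 (3 h) and 91934, 89349.9 and 88240.0 (24 h). No times overlapped in either set. At 24 h against 0 h PAL5 was 70.0-fold higher in the libraries labelled SGT1ami, with a log2 fold change of 6.13 (limma SE 0.03, adjusted p = 1.43e-39), and 83.4-fold higher in wild type, with 6.38 (limma SE 0.03, adjusted p = 5.93e-40). Already by 3 h it was 6.08-fold higher in SGT1ami and 6.23-fold higher in its wild type than at 0 h. The order of the 12 group means runs from wild type of SGT1ami at 0 h to the same wild type at 24 h, a span of 83.4-fold, and 4 of the 11 neighbouring pairs of groups in that order overlap in their ranges. Each of those 4 pairs is a line and its own wild type at the same time.

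Differences of PAL5 between line and wild type were small beside these changes. At 0 h PAL5 was 1.19-fold higher in SGT2ox than in wild type, with a log2 fold change of 0.25 (limma SE 0.05, adjusted p = 0.000167), and the ranges did not overlap. At 0 h in SGT1ami the difference was 0.10 (limma SE 0.03, adjusted p = 0.0193), with overlapping ranges. That call was lost without any of 4 of the 6 libraries compared (SGT1ami replicates 2 and 3, wild type replicates 1 and 3), with log2 fold changes of 0.09 to 0.10 and adjusted p between 0.0585 and 0.104. It was lost too with the groups compared alone (adjusted p = 0.139, limma) and in edgeR (adjusted p = 0.0736). At 3 h neither line was called, at 0.11 (limma SE 0.05, adjusted p = 0.105) in SGT2ox and 0.07 (limma SE 0.03, adjusted p = 0.102) in SGT1ami. Each passed without a single library: SGT2ox at 0.16 (adjusted p = 0.0296, limma) without wild type replicate 3, and SGT1ami at 0.10 (adjusted p = 0.0317, limma) without SGT1ami replicate 3. Both passed with library totals as well, SGT2ox at 0.17 (adjusted p = 0.00626, limma) and SGT1ami at 0.09 (adjusted p = 0.0186, limma). At 24 h SGT2ox was not called, at -0.04 (limma SE 0.05, adjusted p = 0.566), and the libraries labelled SGT1ami were lower than wild type, with a log2 fold change of -0.15 (limma SE 0.03, adjusted p = 0.00119). The last call was lost with scaling by library totals, at -0.06 (adjusted p = 0.19, limma).

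The isochorismate synthase moved with time and little with line. It read 665, 783 and 731 (0 h), 1063, 962 and 1060.3 (3 h) and 172, 185 and 182 (24 h) in SGT2ox. Wild type libraries of that experiment read 723, 745 and 734 (0 h), 1235, 1187 and 1196 (3 h) and 180.4, 189.7 and 175 (24 h). In both, the 3 h libraries were the highest and the 24 h libraries the lowest, with no overlap between times. Against 0 h it was 1.42-fold higher at 3 h and 4.04-fold lower at 24 h in SGT2ox, and 1.64-fold higher and 4.04-fold lower in wild type. At 24 h the log2 fold changes were -2.01 (limma SE 0.07, adjusted p = 2.24e-19) in SGT2ox and -2.01 (limma SE 0.07, adjusted p = 2.56e-19) in wild type. The rise at 3 h in SGT2ox, 0.50 (limma SE 0.07, adjusted p = 8.18e-07), was lost with scaling by library totals, at 0.16 (adjusted p = 0.0544, limma).

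In the second experiment the same gene read 278, 315 and 288 (0 h), 443, 454 and 522 (3 h) and 84.5, 134 and 102 (24 h) in the libraries labelled SGT1ami. Wild type of SGT1ami read 312, 297 and 291 (0 h), 444, 476 and 449 (3 h) and 132, 105 and 103 (24 h). Here too no times overlapped, and the order was 3 h above 0 h above 24 h. The change at 24 h was -1.47 (limma SE 0.13, adjusted p = 2.52e-11) in the libraries labelled SGT1ami and -1.41 (limma SE 0.13, adjusted p = 6.54e-11) in wild type. Line and wild type overlapped at every time in this experiment and at 0 and 24 h in the other. At 3 h SGT2ox was lower than wild type, with a log2 fold change of -0.23 (limma SE 0.07, adjusted p = 0.0261), a call lost without SGT2ox replicate 2 or without any of the 3 wild type libraries, where adjusted p ranged from 0.0501 to 0.138 and log2 fold changes from -0.24 to -0.18. With library totals it was -0.17 (adjusted p = 0.109, limma). In none of the 4 differences of the change with time between line and wild type was the isochorismate synthase called.

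The coactivator gene NPR1 (Solyc07g040690) rose at both times in every set. It read 339, 363 and 389 (0 h), 505, 523 and 540.1 (3 h) and 2015, 1903 and 1853 (24 h) in SGT2ox. In its wild type the values were 268, 275 and 321 (0 h), 654, 583 and 668 (3 h) and 1781, 1801 and 1736 (24 h). SGT2ox was higher than wild type in every library at 0 h and lower in every library at 3 h, and no times overlapped. NPR1 at 24 h against 0 h was 5.29-fold higher in SGT2ox and 6.16-fold higher in wild type, with log2 fold changes of 2.40 (limma SE 0.07, adjusted p = 5.88e-21) and 2.62 (limma SE 0.07, adjusted p = 9.89e-22). By 3 h NPR1 was 1.44-fold higher in SGT2ox and 2.20-fold higher in wild type.

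NPR1 read 878, 831 and 827 (0 h), 1101, 1057 and 1046 (3 h) and 3404, 3312 and 3398 (24 h) in the libraries labelled SGT1ami. The wild type of SGT1ami read 665, 677 and 673 (0 h), 1284, 1169 and 1277 (3 h) and 3442, 3470.2 and 3614 (24 h). As in the other experiment, every SGT1ami library was above every wild type library at 0 h and below at 3 h, and the 24 h values were the highest. Against 0 h it was 1.26-fold higher at 3 h in SGT1ami and 1.85-fold higher in wild type, then 3.99-fold higher at 24 h in the libraries labelled SGT1ami and 5.22-fold higher in wild type. The order of the 12 group means spans 12.2-fold, and 1 of its 11 neighbouring pairs overlaps.

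The line differences of NPR1 turned with time in both experiments. At 0 h it was 1.26-fold higher in SGT2ox than in wild type (log2 scale 0.34, limma SE 0.07, adjusted p = 0.000957), and 1.26-fold higher in SGT1ami than in its wild type (log2 scale 0.33, limma SE 0.04, adjusted p = 1.58e-06). At 3 h NPR1 was 1.21-fold lower in SGT2ox (log2 scale -0.28, limma SE 0.07, adjusted p = 0.00838) and 1.16-fold lower in SGT1ami (log2 scale -0.22, limma SE 0.04, adjusted p = 0.00036). At 24 h neither was called, at 0.12 (limma SE 0.07, adjusted p = 0.24) in SGT2ox and -0.06 (limma SE 0.04, adjusted p = 0.399) in the libraries labelled SGT1ami. The difference of the change from 0 h to 3 h was -0.62 (limma SE 0.10, adjusted p = 8.93e-05) for SGT2ox and -0.55 (limma SE 0.06, adjusted p = 1.24e-07) for SGT1ami. To 24 h it was -0.22 (limma SE 0.10, adjusted p = 0.131) for SGT2ox, not called, and -0.39 (limma SE 0.06, adjusted p = 2.71e-05) for the libraries labelled SGT1ami. Without wild type replicate 3 at 0 h the SGT2ox value was -0.30 (adjusted p = 0.033, limma).

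The PR1 family encodes small secreted proteins, and PR1 proteins of tobacco and tomato are known to bind sterols. PR1a/P4 (Solyc09g007010) stood above its low level elsewhere in a single group. It read 73.3, 48.2 and 51.2 in SGT1ami at 0 h, against 1.57, 4.78 and 0 in its wild type. By 3 h it read 11.1, 6.44 and 3.66 in SGT1ami, against 4.83, 5.81 and 1.93 in wild type of SGT1ami. The 24 h values were 3.62, 7.33 and 6.05 in the libraries labelled SGT1ami, against 2.51, 4.99 and 7.71 in wild type. The 0 h SGT1ami libraries lay above all others and the remaining groups of that experiment overlapped. In SGT2ox it read 0, 0 and 1.74 (0 h), 4.62, 0 and 0 (3 h) and 2.13, 4.25 and 0 (24 h), and in the wild type of SGT2ox 8.09, 9.71 and 4.58 (0 h), 0, 0 and 2.47 (3 h) and 5.37, 6.25 and 6.49 (24 h). Genes were tested where at least 3 of the 18 libraries of an experiment reached 10 normalised reads, which PR1a/P4 did not do here. It passed that minimum in the SGT1ami experiment through its high group alone.

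Because SGT1ami at 0 h is the group through which PR1a/P4 was admitted to testing, no test of that group is given for it. The fitted log2 difference of SGT1ami from wild type at 0 h was 4.55 with a pseudocount of 1 and 2.48 with a pseudocount of 10, as a description. At 3 h the difference was 0.62 (limma SE 0.56, adjusted p = 0.464) and at 24 h, in the libraries so labelled, 0.19 (limma SE 0.56, adjusted p = 0.862), neither called. In wild type of SGT1ami it was called higher at 24 h than at 0 h, at 1.21 (limma SE 0.56, adjusted p = 0.0493), on a few reads per library. That call was lost without wild type replicates 1 or 3 at 0 h or replicates 2 or 3 at 24 h (0.56 to 1.24, adjusted p from 0.0761 to 0.363, limma). It was 1.82 without replicate 2 at 0 h. It was also lost in edgeR and DESeq2, with adjusted p of 0.178 and 0.119, and with a pseudocount of 10, no filter, TMM, library totals or the groups compared alone, with adjusted p of 0.0569 to 0.193 (limma). The change of this wild type at 3 h, 0.99 (limma SE 0.56, adjusted p = 0.129), was not called and passed at 1.60 (adjusted p = 0.0194, limma) without replicate 2 at 0 h.

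PR1b-like (Solyc01g106620) had levels well above the minimum throughout. It read 627, 541 and 625 (0 h), 251, 284 and 257 (3 h) and 1490.3, 1623 and 1576 (24 h) in SGT2ox. Its wild type had 552, 612 and 641 (0 h), 672, 609.8 and 643 (3 h) and 1503, 1607 and 1533 (24 h). The genotypes overlapped at 0 and 24 h, while every SGT2ox library at 3 h lay below every other library of the experiment. At 3 h PR1b-like was 2.43-fold lower in SGT2ox than in wild type (log2 scale -1.28, limma SE 0.07, adjusted p = 3.98e-13). At 24 h against 0 h it rose by 1.39 (limma SE 0.07, adjusted p = 9.69e-16) in SGT2ox and by 1.36 (limma SE 0.07, adjusted p = 1.62e-15) in wild type. At 3 h it fell in SGT2ox (log2 scale -1.18, limma SE 0.07, adjusted p = 7.46e-14) and was not called in wild type (log2 scale 0.10, limma SE 0.07, adjusted p = 0.254), and the difference of these changes was -1.27 (limma SE 0.10, adjusted p = 9.54e-10). With scaling by library totals the wild type change at 3 h was -0.38 (adjusted p = 1.7e-05, limma).

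In the second experiment PR1b-like read 617, 584 and 614 (0 h), 162, 97.5 and 122 (3 h) and 908, 819.7 and 702 (24 h) in the libraries labelled SGT1ami. The wild type of SGT1ami read 208, 193 and 189 (0 h), 129, 132 and 148 (3 h) and 628, 563 and 511 (24 h). SGT1ami libraries were the higher ones at 0 h and overlapped wild type at 3 h, and those labelled SGT1ami at 24 h were above wild type. PR1b-like was 3.07-fold higher in SGT1ami at 0 h (log2 scale 1.62, limma SE 0.13, adjusted p = 1.1e-10). At 24 h it was 1.43-fold higher in the libraries labelled SGT1ami (log2 scale 0.51, limma SE 0.13, adjusted p = 0.00418). At 3 h the difference was -0.13 (limma SE 0.13, adjusted p = 0.502), and without SGT1ami replicate 1 it passed at -0.32 (adjusted p = 0.0484, limma). The gene fell at 3 h in SGT1ami (log2 scale -2.27, limma SE 0.13, adjusted p = 4.05e-15) and in wild type (log2 scale -0.53, limma SE 0.13, adjusted p = 0.000713). At 24 h it was above 0 h by 0.41 (limma SE 0.13, adjusted p = 0.00431) in the libraries labelled SGT1ami and by 1.52 (limma SE 0.13, adjusted p = 1.09e-11) in wild type. The value of the labelled libraries turned to -0.12 (adjusted p = 0.371, limma) with library totals.

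NP24 (Solyc08g080640) is an osmotin of the PR5 or thaumatin-like family, known in tomato as a protein that salt induces. It read 41.6, 47.2 and 50.4 (0 h), 39.3, 39.9 and 55.2 (3 h) and 203, 244 and 220.1 (24 h) in SGT2ox. The wild type grown beside it read 25.9, 25.9 and 32.8 (0 h), 42.3, 42.0 and 65.4 (3 h) and 397, 365 and 358 (24 h). SGT2ox was the higher genotype at 0 h and the lower at 24 h, with no overlap at either time. At 24 h against 0 h osmotin rose by 2.24 (limma SE 0.20, adjusted p = 8.02e-11) in SGT2ox and by 3.69 (limma SE 0.20, adjusted p = 2.23e-15) in wild type, 4.79-fold higher and 13.2-fold higher in group means. SGT2ox against wild type was 0.70 (limma SE 0.20, adjusted p = 0.00947) at 0 h, -0.14 (limma SE 0.20, adjusted p = 0.704) at 3 h and -0.75 (limma SE 0.20, adjusted p = 0.0047) at 24 h. The difference of the changes to 24 h was -1.45 (limma SE 0.28, adjusted p = 0.000325). To 3 h it was -0.84 (limma SE 0.28, adjusted p = 0.0363), a call lost without any of 7 libraries (SGT2ox replicates 2 and 3 at 0 h and 1 and 2 at 3 h, wild type replicates 1 and 2 at 0 h and 3 at 3 h), where adjusted p ranged from 0.0609 to 0.117 and values from -0.83 to -0.64. It was lost too with no filter, library totals or the groups compared alone (adjusted p of 0.0571 to 0.0899, limma). The wild type rise at 3 h, 0.78 (limma SE 0.20, adjusted p = 0.0012), was lost with library totals, at 0.31 (adjusted p = 0.148, limma).

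In the second experiment osmotin read 44.1, 47.4 and 39.8 (0 h), 8.34, 9.20 and 15.6 (3 h) and 163, 143 and 169 (24 h) in the libraries labelled SGT1ami. The wild type of SGT1ami read 6.30, 9.55 and 8.78 (0 h), 11.6, 7.74 and 15.4 (3 h) and 102, 92.4 and 104 (24 h). Osmotin was higher in SGT1ami in every library at 0 h and in the labelled libraries at 24 h, and the genotypes overlapped at 3 h. At 0 h the log2 fold change of SGT1ami against wild type was 2.30 (limma SE 0.28, adjusted p = 3.96e-07). At 3 h it was -0.07 (limma SE 0.28, adjusted p = 0.9). At 24 h it was 0.67 (limma SE 0.28, adjusted p = 0.094), not called, although the groups compared alone, a pseudocount of 10, edgeR and DESeq2 called it, with log2 fold changes of 0.62 to 0.68 and adjusted p of 0.00449 to 0.0115. Osmotin fell at 3 h in SGT1ami, with a log2 fold change of -1.94 (limma SE 0.28, adjusted p = 8.02e-07), and was not called in wild type, at 0.42 (limma SE 0.28, adjusted p = 0.198). At 24 h it was above 0 h by 1.83 (limma SE 0.28, adjusted p = 1.1e-06) in the libraries labelled SGT1ami and by 3.46 (limma SE 0.28, adjusted p = 5.33e-12) in wild type.

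The chitinase Solyc10g055810 belongs to the enzymes that cut chitin of fungal walls. It differed from wild type in opposite directions in the lines at every time, counting the libraries labelled SGT1ami at 24 h. It read 7838, 7470.1 and 7616 (0 h), 8553, 8805 and 8121 (3 h) and 1832, 1856 and 1989 (24 h) in SGT2ox. Wild type libraries of that experiment read 13360.5, 12992 and 13361 (0 h), 19035, 18089 and 19409 (3 h) and 2649.8, 2697 and 2857 (24 h). Every SGT2ox library lay below every wild type library of its time. The chitinase was 1.73-fold lower in SGT2ox at 0 h (log2 scale -0.79, limma SE 0.04, adjusted p = 6.23e-14), 2.22-fold lower at 3 h (log2 scale -1.15, limma SE 0.04, adjusted p = 3.21e-17) and 1.45-fold lower at 24 h (log2 scale -0.53, limma SE 0.04, adjusted p = 1.18e-10). By 24 h it had fallen in both, with log2 fold changes of -2.01 (limma SE 0.04, adjusted p = 8.31e-25) in SGT2ox and -2.28 (limma SE 0.04, adjusted p = 7.31e-26) in wild type. At 3 h it was above 0 h by 0.15 (limma SE 0.04, adjusted p = 0.00231) in SGT2ox and by 0.51 (limma SE 0.04, adjusted p = 2.43e-11) in wild type, but with library totals these were -0.19 (adjusted p = 0.000172, limma) and 0.03 (adjusted p = 0.53, limma).

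SGT1ami and the libraries labelled so read 11482, 11562 and 10979.9 (0 h), 6997, 6743 and 6906 (3 h) and 4692, 4813 and 4852 (24 h) for the chitinase. Wild type of SGT1ami read 6510.0, 7109 and 6690.5 (0 h), 5071, 5241 and 5205 (3 h) and 4503, 4171 and 4287 (24 h). Every one of these SGT1ami libraries lay above every wild type library of its time. The difference was 0.74 (limma SE 0.03, adjusted p = 1.43e-15) at 0 h, 0.41 (limma SE 0.03, adjusted p = 2.44e-10) at 3 h, and 0.15 (limma SE 0.03, adjusted p = 0.002) for the labelled libraries at 24 h. Relative to 0 h the chitinase fell at 3 h, with log2 fold changes of -0.72 (limma SE 0.03, adjusted p = 8.67e-17) in SGT1ami and -0.39 (limma SE 0.03, adjusted p = 7.19e-11) in wild type. At 24 h it had fallen further, with log2 fold changes of -1.24 (limma SE 0.03, adjusted p = 4.88e-23) in the labelled libraries and -0.65 (limma SE 0.03, adjusted p = 3.08e-16) in wild type.

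Solyc01g008620, a beta-1,3-glucanase of the PR2 family, whose enzymes cut beta-1,3-glucans such as fungal wall glucan and callose, was likewise lower than wild type in SGT2ox and higher in SGT1ami. It read 626, 506 and 586 (0 h), 627, 656 and 642 (3 h) and 409, 506 and 468 (24 h) in SGT2ox. In its wild type the values were 2367, 2317 and 2243 (0 h), 1776, 2041 and 1949.9 (3 h) and 973, 999 and 976 (24 h). No SGT2ox library reached any wild type library. The glucanase was 4.03-fold lower in SGT2ox at 0 h (log2 scale -2.02, limma SE 0.07, adjusted p = 5.33e-17), 2.99-fold lower at 3 h (log2 scale -1.58, limma SE 0.07, adjusted p = 9.1e-15) and 2.13-fold lower at 24 h (log2 scale -1.10, limma SE 0.07, adjusted p = 8.49e-12). At 24 h against 0 h it fell in both, with log2 fold changes of -0.31 (limma SE 0.07, adjusted p = 0.000448) in SGT2ox and -1.23 (limma SE 0.07, adjusted p = 2.59e-14) in wild type. The small rise of SGT2ox at 3 h, 0.17 (limma SE 0.07, adjusted p = 0.0468), was lost without SGT2ox replicates 2 or 3 at 0 h or any SGT2ox library at 3 h (0.08 to 0.19, adjusted p from 0.0535 to 0.339, limma). It was lost too with a replicate block (adjusted p = 0.0535, limma), and with no filter, TMM, the groups compared alone, edgeR or DESeq2 (adjusted p of 0.0648 to 0.114). It turned to -0.17 with library totals.

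The same glucanase read 7435, 6792 and 6948 (0 h), 3305, 3629 and 3547 (3 h) and 6578, 5942 and 5938 (24 h) in the libraries labelled SGT1ami. Wild type of SGT1ami read 3480.1, 3354 and 3434 (0 h), 1871, 2081 and 2081 (3 h) and 5055, 5169.8 and 4824 (24 h). SGT1ami libraries were above those of wild type at 0 and 3 h, as were those labelled SGT1ami at 24 h, and the 3 h values were the lowest in both. Solyc01g008620 was 2.06-fold higher in SGT1ami at 0 h (log2 scale 1.04, limma SE 0.05, adjusted p = 8.38e-16), 1.74-fold higher at 3 h (log2 scale 0.80, limma SE 0.05, adjusted p = 1.59e-13) and 1.23-fold higher in the labelled libraries at 24 h (log2 scale 0.29, limma SE 0.05, adjusted p = 2.44e-05). At 24 h against 0 h the change was -0.20 (limma SE 0.05, adjusted p = 0.000301) in the labelled libraries and 0.55 (limma SE 0.05, adjusted p = 1.07e-11) in wild type. The wild type change was -0.07 (adjusted p = 0.143, limma) with library totals. Over the 12 groups the means span 15.3-fold, from SGT2ox at 24 h to SGT1ami at 0 h, and 2 of 11 neighbouring pairs in the order overlap.

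The other beta-1,3-glucanase, Solyc01g060020, was close to the floor until 24 h. At 0 and 3 h its 24 values lay between 0 and 9.76. At 24 h it read 38.3, 34.0 and 38.0 in SGT2ox, against 73.0, 102 and 82.3 in wild type, and 44.7, 51.3 and 58.1 in the libraries labelled SGT1ami, against 54.0, 32.5 and 46.2 in wild type. All 12 libraries at 24 h were above all earlier ones, and the gene reached the minimum for testing through these libraries alone. Its change from 0 h is therefore given with no test: the fitted log2 values were 3.56 in SGT2ox, 5.14 in its wild type, 2.41 in the libraries labelled SGT1ami and 4.17 in wild type, and these sizes rest on a few reads at 0 h.

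At 24 h Solyc01g060020 had no overlap between SGT2ox and wild type, yet the difference, -1.19 (limma SE 0.63, adjusted p = 0.159), was not called. It was called with a pseudocount of 10 (-1.03), with the groups compared alone (-1.19), in edgeR (-1.22) and in DESeq2 (-1.23), at adjusted p of 0.000203 to 0.00272. The difference of the changes to 24 h, -1.58 (limma SE 0.89, adjusted p = 0.22), was called with a pseudocount of 10 (-1.07, adjusted p = 0.00668, limma). At 0 h SGT1ami was called higher by 1.99 (limma SE 0.63, adjusted p = 0.0251), from values of 8.67, 8.04 and 9.76 in SGT1ami against 0, 4.78 and 1.60 in its wild type. That call was lost without any of 5 of the 6 libraries (adjusted p of 0.0544 to 0.188, limma) and with the groups compared alone (0.0594). The log2 fold change was 1.34 without wild type replicate 1 and 2.60 without wild type replicate 2, the library without which the call stood. Its fall at 3 h in SGT1ami, -1.72 (limma SE 0.63, adjusted p = 0.0196), was lost without SGT1ami replicate 3 at 0 h (-1.66, adjusted p = 0.0523, limma) or replicate 1 at 3 h (-0.94, adjusted p = 0.201, limma). No library behind the 0 h call or the 3 h call reached the minimum for testing, so no direction is read from either.

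The 12 group means of each gene can be put in order, and neighbours in that order whose libraries overlap are not separated by their spread. NPR1 had 1 such pair, wild type of SGT2ox at 3 h and wild type of SGT1ami at 0 h. The chitinase had 1 as well, wild type of SGT1ami at 0 h and SGT1ami at 3 h, in a span of 9.96-fold from SGT2ox at 24 h to wild type of SGT2ox at 3 h. For the glucanase Solyc01g008620 the 2 pairs were wild type of SGT2ox at 3 h with wild type of SGT1ami at 3 h, and wild type of SGT1ami at 0 h with SGT1ami at 3 h. The isochorismate synthase spanned 11.3-fold, and its 5 overlapping pairs were each a line and its own wild type at 1 time. PR1b-like spanned 12.3-fold, from SGT1ami at 3 h to SGT2ox at 24 h, with 6 pairs overlapping. Osmotin ran from wild type of SGT1ami at 0 h to wild type of SGT2ox at 24 h with 5 pairs overlapping. PR1a/P4 and Solyc01g060020 had 10 and 8 of their 11 neighbouring pairs overlapping.

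Counts of members against all genes follow, each beside the share of all genes tested that the same rule called. A member was left out of the counts where the groups compared were those through which alone it reached the minimum for testing. This took PR1a/P4 out of 5 comparisons with SGT1ami at 0 h and the glucanase Solyc01g060020 out of the 4 changes from 0 to 24 h. The share with scaling by library totals is added where it moved the balance of higher and lower calls by more than 10 percentage points, because size factors hold the median gene in place between times. With library totals the median gene moved by -0.33 and -0.22 at 3 and 24 h in SGT2ox, and by -0.45 and -0.28 in its wild type. It moved by -0.21 and -0.50 in SGT1ami as labelled, and by -0.24 and -0.58 in its wild type (log2).

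At 3 h against 0 h, of the 8 members counted 5 rose, 1 fell and 2 did not pass in SGT2ox, beside 33.2% higher and 31.6% lower among all genes tested (19.2% and 53.2% with library totals, which for the members gave 2 higher and 3 lower), with a median log2 value of 0.16 over the members and 0.00 over all genes. In its wild type, of the 8 members counted 5 rose, 1 fell and 2 did not pass, beside 35% higher and 31.3% lower among all genes tested (17.2% and 59.3% with library totals, which for the members gave 3 higher and 2 lower), with a median log2 value of 0.61 over the members and 0.01 over all genes. PAL5, NPR1 and the isochorismate synthase were among those that rose in both. In SGT1ami, of the 8 members counted 3 rose and 5 fell, beside 30.5% higher and 31.7% lower among all genes tested (21.9% and 45.9% with library totals), with a median log2 value of -0.87 over the members and -0.02 over all genes. In its wild type, of the 9 members counted 3 rose, 3 fell and 3 did not pass, beside 30.9% higher and 31.8% lower among all genes tested (21.1% and 47.8% with library totals), with a median log2 value of 0.42 over the members and -0.02 over all genes. The 3 that rose in SGT1ami were again PAL5, NPR1 and the isochorismate synthase, and the 5 that fell were the PR genes counted. Of these 5, the call of Solyc01g060020 was lost without either of 2 libraries, as given above. Its values at 0 and 3 h were all under the minimum for testing, so no fall is read from its call. In its wild type the same 3 rose, and PR1b-like, the chitinase and the glucanase Solyc01g008620 fell. Those 3, PAL5, NPR1 and the isochorismate synthase, rose in all 4 sets, beside 16% of all genes tested in both experiments, and 0 members fell in all 4, beside 13.2%. With library totals the rise of the isochorismate synthase in SGT2ox was not called (0.16, adjusted p = 0.0544, limma). The share of all genes in all 4 sets was not computed with library totals at 3 h.

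**Figure D2:**
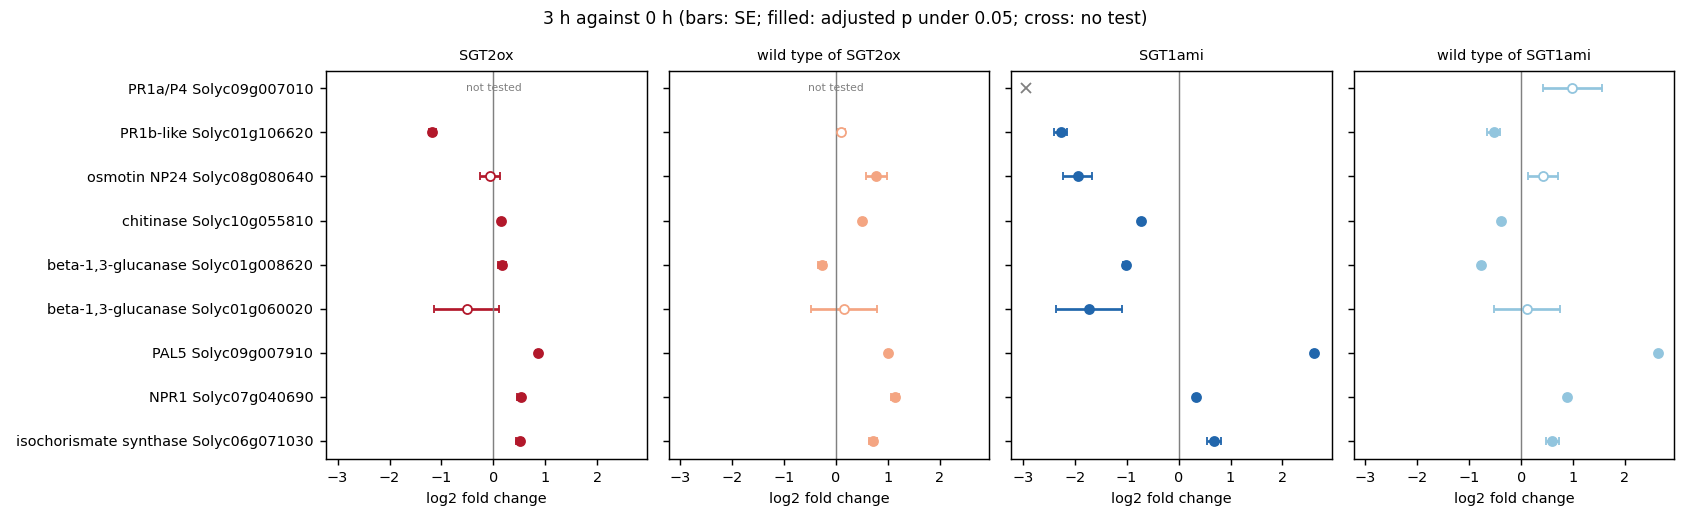
Fitted log2 fold change at 3 h against 0 h for the 9 genes in SGT2ox, its wild type, SGT1ami and its wild type; bars are SE of the fit, filled points have an adjusted p under 0.05 and crosses are fitted values with no test. PAL5, NPR1 and the isochorismate synthase lie right of 0 in all 4 panels, and the 5 PR genes tested lie left of 0 in SGT1ami.

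By 24 h 6 of the 7 members counted in every set had moved the same way in all 4 sets, 4 up and 2 down, beside 30% higher and 28.3% lower in all 4 among all genes tested in both experiments (19.8% and 40.9% with library totals). Of the 7 members counted 4 rose and 3 fell in SGT2ox, beside 40.3% higher and 40.8% lower among all genes tested, with a median log2 value of 1.39 over the members and -0.02 over all genes. In its wild type, of the 7 members counted 4 rose and 3 fell, beside 39.5% higher and 39.6% lower among all genes tested (30.7% and 50.4% with library totals), with a median log2 value of 1.36 over the members and -0.01 over all genes. In the libraries labelled SGT1ami, of the 7 members counted 4 rose and 3 fell, beside 42.7% higher and 40.1% lower among all genes tested (27.5% and 58.4% with library totals, which for the members gave 3 higher and 3 lower), with a median log2 value of 0.41 over the members and 0.02 over all genes. In wild type of SGT1ami, of the 8 members counted 6 rose and 2 fell, beside 42.6% higher and 39.8% lower among all genes tested (26% and 60.4% with library totals, which for the members gave 4 higher and 2 lower), with a median log2 value of 1.36 over the members and 0.03 over all genes. PR1b-like, osmotin, PAL5 and NPR1 rose in all 4 sets, and the chitinase and the isochorismate synthase fell in all 4. The glucanase Solyc01g008620 fell in 3 sets and was higher in wild type of SGT1ami, where library totals turned it to -0.07, and PR1b-like turned to -0.12 with library totals in the libraries labelled SGT1ami.

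**Figure D3:**
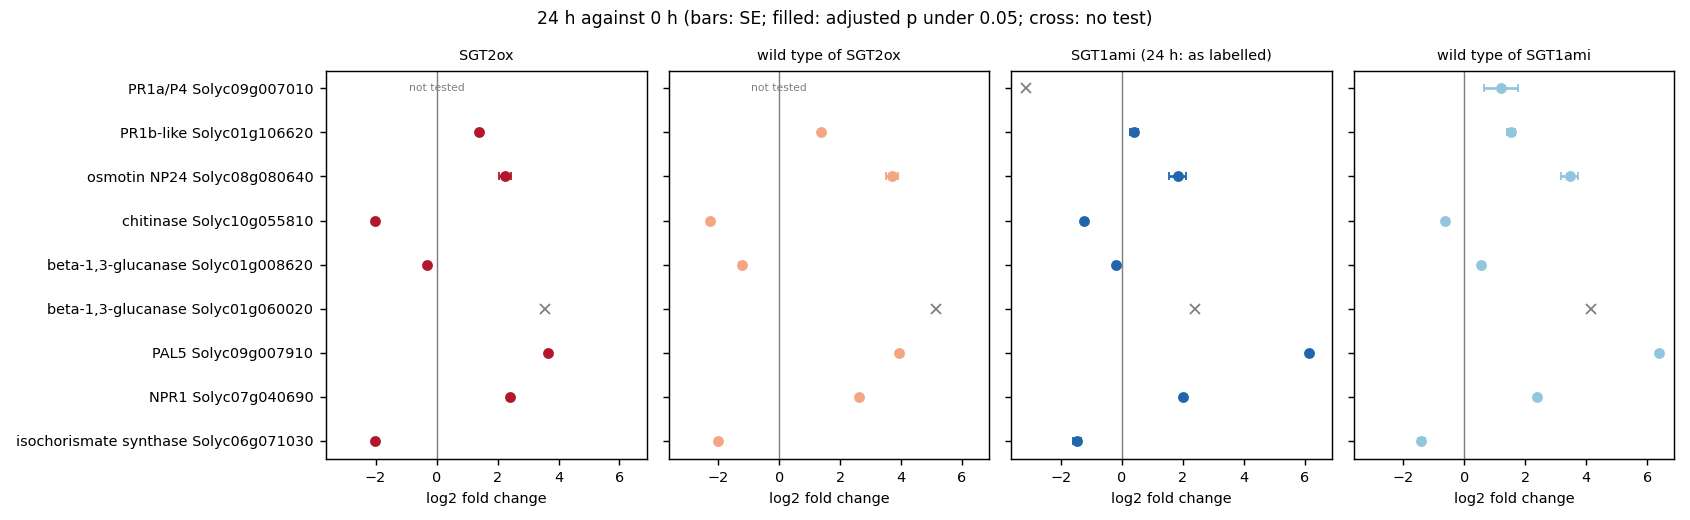
Fitted log2 fold change at 24 h against 0 h for the 9 genes in SGT2ox, its wild type, the libraries labelled SGT1ami and their wild type; bars are SE of the fit, filled points have an adjusted p under 0.05 and crosses are fitted values with no test. PAL5 reaches 3.65 and 3.94 in the first experiment and 6.13 and 6.38 in the second, while the chitinase and the isochorismate synthase lie left of 0 in every panel.

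Against wild type, SGT2ox had fewer members higher than lower after 0 h. At 0 h, of the 8 members counted 3 were higher, 2 lower and 3 did not pass, beside 14% higher and 11.5% lower among all genes tested (9.17% and 20.7% with library totals), with a median log2 value of 0.12 over the members and 0.00 over all genes. Osmotin, PAL5 and NPR1 were the higher members, and the chitinase and the glucanase Solyc01g008620 lower. At 3 h, of the 8 members counted 0 were higher, 5 lower and 3 did not pass, beside 7.25% higher and 10.1% lower among all genes tested (11.3% and 6.68% with library totals, which for the members gave 1 higher and 4 lower), with a median log2 value of -0.28 over the members and -0.01 over all genes. PR1b-like, NPR1 and the isochorismate synthase joined these lower enzymes. At 24 h, of the 8 members counted 0 were higher, 3 lower and 5 did not pass, beside 15.1% higher and 17% lower among all genes tested, with a median log2 value of -0.29 over the members and -0.00 over all genes. The lower members were osmotin, the chitinase and the glucanase Solyc01g008620.

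Most members counted were higher in SGT1ami than in wild type at 0 h. At that time, of the 8 members counted 7 were higher, 0 lower and 1 did not pass, beside 10.6% higher and 8.53% lower among all genes tested, with a median log2 value of 0.89 over the members and 0.00 over all genes. The isochorismate synthase was the member not called. Of the 7, the glucanase Solyc01g060020 had no 0 h value that reached the minimum for testing. It was tested only because 24 h libraries reached that minimum, so no line difference is read from its call. At 3 h, of the 9 members counted 2 were higher, 1 lower and 6 did not pass, beside 13.8% higher and 14.3% lower among all genes tested, with a median log2 value of 0.07 over the members and 0.01 over all genes. The chitinase and the glucanase Solyc01g008620 were higher and NPR1 lower. In the libraries labelled SGT1ami at 24 h, of the 9 members counted 3 were higher, 1 lower and 5 did not pass, beside 6.91% higher and 15.2% lower among all genes tested (15.5% and 7.2% with library totals, which for the members gave 3 higher and 0 lower), with a median log2 value of 0.19 over the members and -0.03 over all genes. PR1b-like, the chitinase and the glucanase Solyc01g008620 were higher and PAL5 lower. The 5 PR genes counted were among those higher at 0 h, with fitted log2 fold changes from 0.74 for the chitinase to 2.30 for osmotin, and the calls of Solyc01g060020 and PAL5 among these were the ones lost without single libraries.

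**Figure D4:**
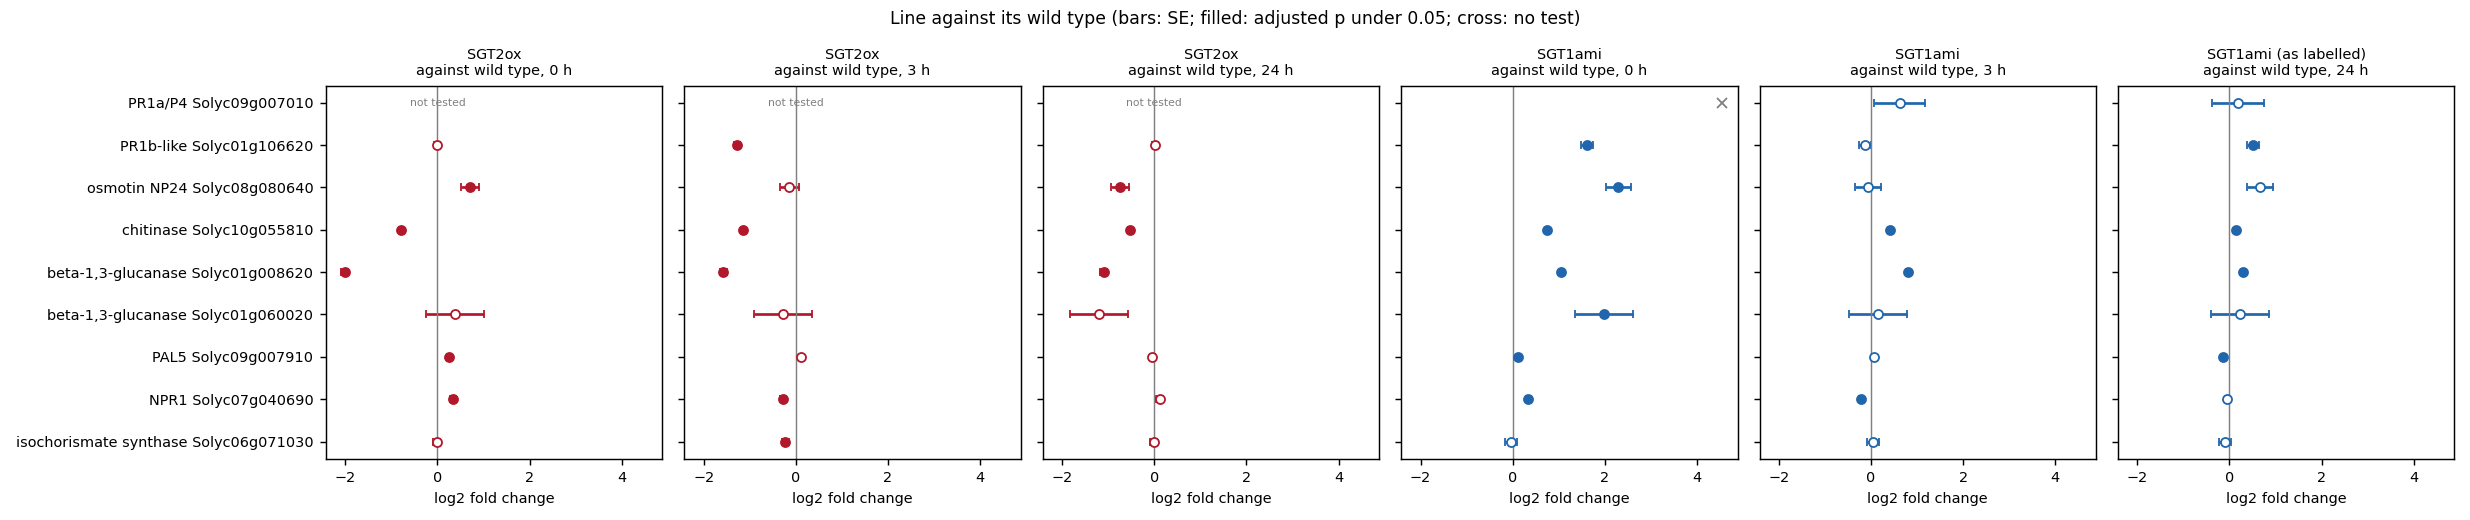
Fitted log2 fold change of SGT2ox and SGT1ami against their own wild types at 0, 3 and 24 h; bars are SE of the fit, filled points have an adjusted p under 0.05 and crosses are fitted values with no test. The chitinase and the glucanase Solyc01g008620 lie left of 0 in the 3 SGT2ox panels and right of 0 in the 3 SGT1ami panels, the last of which shows libraries with SGT1 near its wild type level.

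The change with time itself differed between line and wild type for most PR genes. For SGT2ox to 3 h, of the 8 members counted 1 was higher, 4 lower and 3 did not pass, beside 6.9% higher and 11.2% lower among all genes tested (17.4% and 5.95% with library totals, which for the members gave 1 higher and 3 lower), with a median log2 value of -0.49 over the members and -0.02 over all genes. To 24 h, of the 8 members counted 2 were higher, 2 lower and 4 did not pass, beside 10% higher and 13.3% lower among all genes tested (13.9% and 10% with library totals), with a median log2 value of -0.11 over the members and -0.00 over all genes. A higher value here means a larger rise or a smaller fall in SGT2ox: the glucanase Solyc01g008620 had 0.44 (limma SE 0.10, adjusted p = 0.00373) to 3 h and 0.92 (limma SE 0.10, adjusted p = 2e-07) to 24 h. The chitinase was -0.36 (limma SE 0.06, adjusted p = 6.58e-05) to 3 h and 0.26 (limma SE 0.06, adjusted p = 0.00151) to 24 h. PAL5 was -0.29 (limma SE 0.07, adjusted p = 0.00164) to 24 h. To 3 h PAL5 was -0.14 (limma SE 0.07, adjusted p = 0.152), not called, and passed at -0.19 (adjusted p = 0.0342, limma) without SGT2ox replicate 2 at 0 h.

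For SGT1ami to 3 h, of the 8 members counted 0 were higher, 5 lower and 3 did not pass, beside 9.02% higher and 11.3% lower among all genes tested, with a median log2 value of -0.44 over the members and 0.01 over all genes. In the libraries labelled SGT1ami at 24 h, of the 8 members counted 0 were higher, 6 lower and 2 did not pass, beside 8.11% higher and 15.4% lower among all genes tested (13.6% and 9.21% with library totals), with a median log2 value of -0.67 over the members and -0.04 over all genes. PR1b-like was -1.75 (limma SE 0.18, adjusted p = 2.48e-08) and -1.11 (limma SE 0.18, adjusted p = 3.32e-05), and osmotin -2.36 (limma SE 0.40, adjusted p = 5.18e-05) and -1.63 (limma SE 0.40, adjusted p = 0.00298). At 3 h the ranges of both genes in SGT1ami overlapped those of wild type, while at 0 h all lay above them. The glucanase Solyc01g060020 was not called to 3 h, at -1.84 (limma SE 0.89, adjusted p = 0.163), and passed at -2.54 (adjusted p = 0.0371, limma) without wild type replicate 3 at 3 h.

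Wild types of the experiments differed before any change with time. In the wild type of SGT2ox against that of SGT1ami at 0 h, of the 9 members counted 6 were higher, 2 lower and 1 did not pass, beside 31.6% higher and 34.8% lower among all genes tested, with a median log2 value of 1.05 over the members and -0.02 over all genes. PR1b-like was 3.06-fold higher, at 552, 612 and 641 in wild type of SGT2ox against 208, 193 and 189 in wild type of SGT1ami. The chitinase differed by 0.97 (limma SE 0.04, adjusted p = 3.16e-24), osmotin by 1.67 (limma SE 0.24, adjusted p = 5.98e-08), PAL5 by 1.05 (limma SE 0.04, adjusted p = 2.08e-24) and the isochorismate synthase by 1.29 (limma SE 0.11, adjusted p = 4.64e-14). NPR1 was lower, at -1.22 (limma SE 0.06, adjusted p = 2.61e-21), as was the glucanase Solyc01g008620, at -0.57 (limma SE 0.06, adjusted p = 2.14e-10). PR1a/P4, at 1.73 (limma SE 0.67, adjusted p = 0.0217), was lost without 3 of the 6 libraries (wild type of SGT2ox replicates 1 or 2, wild type of SGT1ami replicate 3; 1.08 to 1.65, adjusted p from 0.056 to 0.191, limma), and was 2.35 without wild type of SGT1ami replicate 2. With the groups compared alone its adjusted p was 0.0527 (limma), and with a pseudocount of 10 the difference was 0.53. Its wild type values were all under the minimum of 10, and it was tested only because SGT1ami libraries reached that minimum. Experiment and wild type set cannot be told apart.

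Changes with time differed between the wild types as well. For the wild type of SGT2ox minus that of SGT1ami to 3 h, of the 9 members counted 4 were higher, 2 lower and 3 did not pass, beside 29.1% higher and 22.8% lower among all genes tested (16.9% and 35.5% with library totals, which for the members gave 3 higher and 2 lower), with a median log2 value of 0.25 over the members and 0.06 over all genes. To 24 h, of the 9 members counted 1 was higher, 4 lower and 4 did not pass, beside 25.6% higher and 27.4% lower among all genes tested (46.5% and 15.2% with library totals, which for the members gave 1 higher and 3 lower), with a median log2 value of -0.60 over the members and -0.02 over all genes. The 2 lower to 3 h were PAL5 and PR1a/P4, the latter admitted to testing through SGT1ami libraries alone. PAL5 was -1.63 (limma SE 0.06, adjusted p = 1.25e-25) to 3 h and -2.44 (limma SE 0.06, adjusted p = 1.07e-31) to 24 h, the smaller rise being in the wild type of SGT2ox. The chitinase was 0.90 (limma SE 0.05, adjusted p = 7.22e-18) and -1.63 (limma SE 0.05, adjusted p = 1.25e-26), and the glucanase Solyc01g008620 0.50 (limma SE 0.09, adjusted p = 6.98e-06) and -1.78 (limma SE 0.09, adjusted p = 1.48e-20). NPR1 was 0.25 (limma SE 0.08, adjusted p = 0.00973) to 3 h, which became -0.00 (adjusted p = 0.989, limma) with library totals and 0.25 (adjusted p = 0.0609, limma) with the groups compared alone. To 24 h NPR1 was 0.24 (limma SE 0.08, adjusted p = 0.0146), lost at 0.19 (adjusted p = 0.0642, limma) without replicate 1 of the wild type of SGT2ox at 0 h. The isochorismate synthase was -0.60 (limma SE 0.15, adjusted p = 0.000722) to 24 h, and -0.25 (adjusted p = 0.158, limma) with library totals. With a pseudocount of 10 another 2 members were called higher to 24 h, osmotin at 0.74 (adjusted p = 0.00741, limma), against 0.23 (limma SE 0.33, adjusted p = 0.597) as tested, and the glucanase Solyc01g060020 at 0.84 (adjusted p = 0.0106, limma), against 0.97 (limma SE 0.93, adjusted p = 0.401).

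A wider list of salicylate and PR genes, noted as 35 identifiers from general knowledge of the tomato genome of PAL, NPR, EDS1, PAD4, WRKY70, salicylate methyltransferase and PR relatives, was counted as well. Of these, 29 are in the table and 26 were tested in the SGT2ox and 27 in the SGT1ami experiment. Unlike the members, no gene of this list was left out of a count for how it reached the minimum. Solyc08g080670.1, which is on the list, reached the minimum in the SGT1ami experiment through 24 h libraries alone. Its calls at 24 h there are counted below but are no test, and the list as a whole was not checked for this. At 24 h against 0 h 18 rose and 5 fell in SGT2ox, beside 40.3% and 40.8% of all genes tested, and 21 rose and 5 fell in its wild type, beside 39.5% and 39.6%. In the second experiment 20 rose and 5 fell in the libraries labelled SGT1ami, beside 42.7% and 40.1%, and 21 rose and 4 fell in wild type, beside 42.6% and 39.8%. At 3 h 12 rose and 8 fell in SGT2ox (all genes 33.2% and 31.6%), 12 rose and 6 fell in its wild type (35% and 31.3%), 13 rose and 11 fell in SGT1ami (30.5% and 31.7%) and 14 rose and 5 fell in its wild type (30.9% and 31.8%). With library totals the counts at 3 h were 9 higher and 11 lower, 7 higher and 10 lower, 11 higher and 12 lower and 11 higher and 7 lower in the same order. All genes then had 19.2% and 53.2%, 17.2% and 59.3%, 21.9% and 45.9%, and 21.1% and 47.8%. At 24 h library totals gave 18 higher and 6 lower in SGT2ox (all genes 34% and 48.3%). Its wild type had 21 and 5 (30.7% and 50.4%). The libraries labelled SGT1ami had 19 and 7 (27.5% and 58.4%), and their wild type 19 and 5 (26% and 60.4%).

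Against wild type this list had 8 genes higher and 6 lower at 0 h in SGT2ox, beside 14% and 11.5% of all genes tested, 3 genes higher and 6 lower at 3 h, beside 7.25% and 10.1%, and 2 genes higher and 10 lower at 24 h, beside 15.1% and 17%. With library totals SGT2ox had 7 higher and 7 lower at 0 h, beside 9.17% and 20.7%. At 3 h it then had 3 and 4, beside 11.3% and 6.68%. SGT1ami had 18 genes higher and 1 lower at 0 h, beside 10.6% and 8.53% of all genes tested, and 8 genes higher and 5 lower at 3 h, beside 13.8% and 14.3%. Those labelled SGT1ami at 24 h had 4 genes higher and 7 lower, beside 6.91% and 15.2%. With library totals they had 7 higher and 5 lower, beside 15.5% and 7.2%. The median log2 fold change of the list in SGT1ami at 0 h was 0.41, beside 0.00 for all genes tested. Genes of the list that reached the minimum only through SGT1ami at 0 h were not looked for. The 0 h count and median may hold some, for which the call is no test. Some identifiers of the list are neighbours of members and may share reads with them.

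PR and PAL genes often lie in tandem, so identifiers numbered within 30 of a member's on the same chromosome were followed too. There were 45 of them, 3 to 7 for each member, and 32 were tested in both experiments. At 24 h, 15 of these were called at least 2-fold higher than at 0 h in both wild types and 3 at least 2-fold lower, beside 16.1% and 13.3% of all genes tested in both. At 3 h 3 were higher and 1 lower, beside 5.29% and 3.38%. Of the 15, 2 reached the minimum for testing in an experiment through 24 h libraries alone. Next to the chitinase, Solyc10g055800 moved the opposite way at 24 h. It averaged 31902 ± 879 in SGT2ox at 24 h, 34442 ± 1486 in its wild type at 24 h and 5938 ± 198 in that wild type at 0 h (SD, n = 3 each), with log2 fold changes at 24 h of 2.54 (limma SE 0.04, adjusted p = 1.44e-26) in wild type of SGT2ox and 3.85 (limma SE 0.03, adjusted p = 1.4e-35) in wild type of SGT1ami. Over the same interval the chitinase Solyc10g055810 fell in both wild types.

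Beside osmotin, Solyc08g080670.1 averaged 377 ± 46.0 in SGT2ox, against 836 ± 71.1 in wild type, and 1385 ± 88.5 in the libraries labelled SGT1ami, against 801 ± 18.9 in wild type, all at 24 h (SD, n = 3 each). At 0 h it averaged 34.6 ± 4.79 in wild type of SGT2ox, a log2 fold change at 24 h of 4.56 (limma SE 0.34, adjusted p = 2.19e-12). The 0 h mean in wild type of SGT1ami was 3.18 ± 3.19, and no test is given there, since the gene reached the minimum through 24 h libraries. Osmotin and this neighbour were both lower in SGT2ox than in wild type at 24 h, the neighbour with a log2 fold change of -1.15 (limma SE 0.34, adjusted p = 0.00996). Solyc08g080630 averaged 41.4 ± 13.7 at 24 h and 4.73 ± 2.70 at 0 h in wild type of SGT2ox, and 51.7 ± 8.23 at 24 h and 1.59 ± 0.0121 at 0 h in wild type of SGT1ami (SD, n = 3 each).

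Solyc09g007900, whose number precedes that of PAL5, rose by 2.03 (limma SE 0.06, adjusted p = 5.29e-21) and 4.46 (limma SE 0.04, adjusted p = 3.57e-34) at 24 h, with a difference between these changes of -2.42 (limma SE 0.08, adjusted p = 1.07e-26). Near NPR1, Solyc07g040710 rose by 4.55 (limma SE 0.18, adjusted p = 1.71e-18) and 7.49 (limma SE 0.14, adjusted p = 2.6e-27) at 24 h. Solyc07g040680 rose at 3 h by 3.17 (limma SE 0.19, adjusted p = 2.71e-14) and 2.35 (limma SE 0.31, adjusted p = 1.37e-07). At 3 h it averaged 69.4 ± 8.55 in SGT1ami, against 153 ± 11.7 in its wild type (SD, n = 3 each). The sources used here pair no name with these identifiers.

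**Figure D5:**
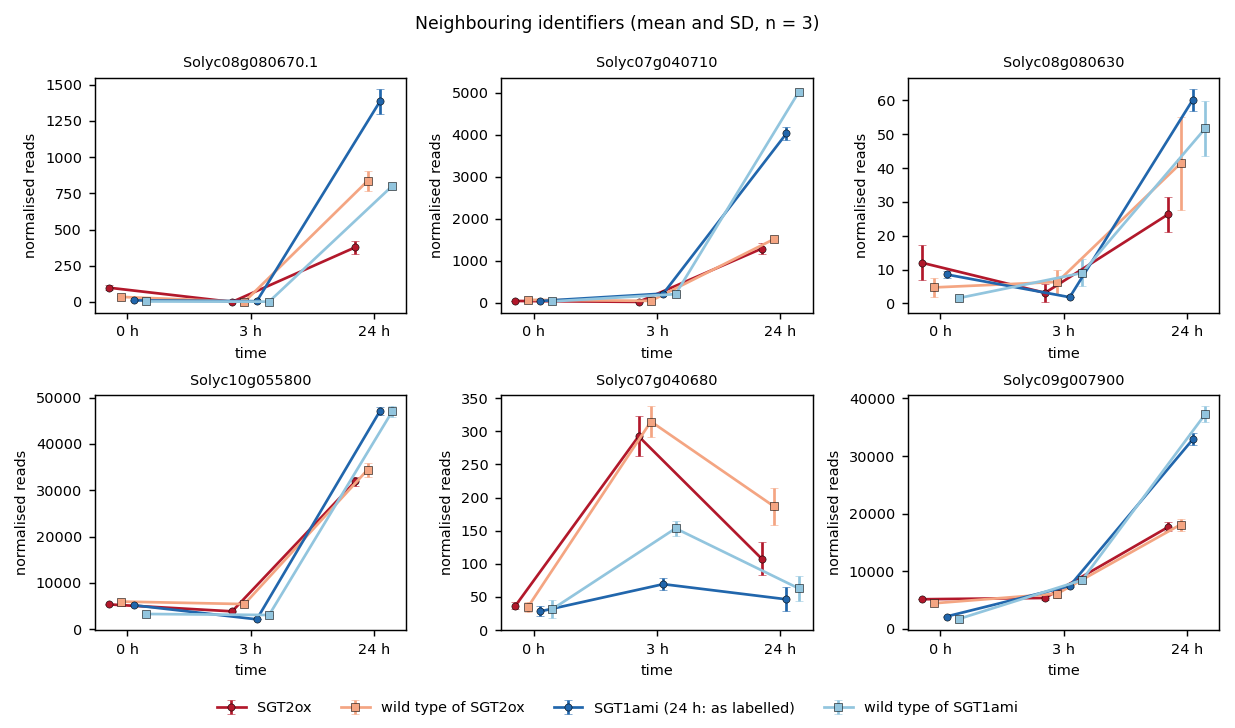
Mean normalised reads (bars: SD, n = 3) by time (0, 3, 24 h) for 6 identifiers that neighbour the listed genes, in SGT2ox, its wild type, SGT1ami (24 h as labelled) and its wild type, on linear axes that differ between panels. Solyc10g055800 and Solyc09g007900 rise at 24 h in all 4 sets, and Solyc07g040680 peaks at 3 h in all 4.

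Genes with the most similar profile over the 12 groups were found as the smallest root mean square difference of centred log2 group means, among 18402 genes with a mean of at least 50. The isochorismate synthase was matched closest, with Solyc12g009070.1 at 0.14 and Solyc02g066920 at 0.15. NPR1 was matched by Solyc03g119440 at 0.17 and Solyc02g062800.2 at 0.20. PAL5 had Solyc06g073830.1 and Solyc07g056400.1, both at 0.33. The PR genes had no gene as near: Solyc11g010120 and Solyc01g102860.2 lay at 0.39 and 0.40 from the chitinase, and Solyc12g005620.1 and Solyc04g064770.1 at 0.42 and 0.54 from the glucanase Solyc01g008620. Solyc03g083440 and Solyc02g082190 lay at 0.51 and 0.54 from PR1b-like, and Solyc12g017850 and Solyc01g102390 at 0.66 and 0.69 from osmotin. The same distance between PR1b-like and osmotin was 0.75. The 12 groups share libraries' scaling and 2 experiments, so these distances are a description.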

How the data were processed

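Trimmomatic, STAR, featureCounts and DESeq2 are named, with no versions or roles, per the submitters' processing notes, and no source used here names the genome build. The authors deposited a signal table of 29285 genes by 36 libraries. From its values, each entry is a gene count divided by 1 factor per library: 100% of entries were whole multiples of the smallest, within 0.01 of a read. Even numbers made up 78.8% of entries of 2 to 11 reads, which is how tables look when each mate is counted, so independent fragments are fewer than reads. All 36 columns were mapped by sample title and 0 were left out.

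The deposited signal was tested with limma 3.58.1 (R 4.3.3, mean-variance trend) on log2(value + 1), within each experiment (18 libraries, 6 groups, 12 residual degrees of freedom), for genes reaching 10 in at least 3 of the 18 libraries: 22399 in the SGT2ox and 22286 in the SGT1ami experiment. PR1a/P4 and Solyc01g060020 were not tested where they reached this minimum only through the group or time compared. For wild type against wild type, a single fit held all 36 libraries (22945 genes). P-values were adjusted by Benjamini-Hochberg over all genes tested in each of 21 comparisons. Folds are ratios of group means. Alternatives were pseudocounts of 0.5 and 10, no filter, TMM, library totals, only the groups compared, a replicate block, each library left out, the SGT1ami-labelled 24 h libraries left out, and edgeR 4.0.16 and DESeq2 1.42.0 on the recovered reads. The fit was also run on simulated counts with the same spread for all genes and changes only in genes well above the floor. That run did not cover genes near the floor or the scaling between times. The genes named were the 9 listed, 6 neighbouring identifiers with the largest shared change in both wild types, and the 2 genes nearest in profile to each member. The members, lists and tests were chosen with earlier results of these data known. P-values measure the spread between the labelled triplicates. That spread was small: the coefficient of variation common to all genes in edgeR was 4.88% in the SGT2ox and 3.79% in the SGT1ami experiment. Small differences could therefore be called. No leaf marker could be paired with an identifier, so the tissue label was not checked.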

Additional observations from a re-analysis of the deposited data

Results flagged for a closer look

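Each difference here was called by limma as a test of the difference itself, as the change with time in a line minus that in its wild type, or in the wild type of SGT2ox minus that in the wild type of SGT1ami. In SGT2ox the change to 3 h was lower than in wild type for PR1b-like (-1.27), osmotin (-0.84), the chitinase (-0.36) and NPR1 (-0.62), and higher for the glucanase Solyc01g008620 (0.44). The osmotin call was lost without any of 7 libraries, and with no filter, library totals or the groups compared alone. To 24 h it was lower for osmotin (-1.45) and PAL5 (-0.29), and higher for the chitinase (0.26) and the glucanase Solyc01g008620 (0.92).

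In SGT1ami the change to 3 h was lower than in wild type for PR1b-like (-1.75), osmotin (-2.36), the chitinase (-0.33), the glucanase Solyc01g008620 (-0.25) and NPR1 (-0.55). In the libraries labelled SGT1ami at 24 h it was lower for PR1b-like (-1.11), osmotin (-1.63), the chitinase (-0.60), the glucanase Solyc01g008620 (-0.75), PAL5 (-0.25) and NPR1 (-0.39).

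Between the wild types, the change to 3 h in the wild type of SGT2ox was lower for PR1a/P4 (-3.42) and PAL5 (-1.63), and higher for PR1b-like (0.62), the chitinase (0.90), the glucanase Solyc01g008620 (0.50) and NPR1 (0.25). The PR1a/P4 value was -4.03 without replicate 2 and -2.77 without replicate 3 of the wild type of SGT1ami at 0 h, and -4.02 without replicate 3 of the wild type of SGT2ox at 3 h. It was -0.92 with a pseudocount of 10 and -4.38 with 0.5. All wild type values of PR1a/P4 at 0 and 3 h lay between 0 and 9.71, so its size rests on a few reads. No wild type library reached the minimum of 10, and the gene was tested only because SGT1ami libraries did. To 24 h the change was lower for the chitinase (-1.63), the glucanase Solyc01g008620 (-1.78), PAL5 (-2.44) and the isochorismate synthase (-0.60), and higher for NPR1 (0.24). With library totals the NPR1 value to 3 h (-0.00) and the isochorismate synthase value to 24 h (-0.25) were not called. The NPR1 call to 24 h was lost without 1 library. Experiment and wild type set cannot be told apart in these values.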

How the results depend on the processing

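The counts of members called, higher and lower together, stayed within 1.5 times the reported count in all 357 alternatives, and with the replicate block they ranged from 3 to 8 over the comparisons. Such counts do not see a change of direction. In SGT2ox at 3 h against 0 h, 5 higher and 1 lower became 2 higher and 3 lower with library totals. Of 171 single results with a test, 121 were called, 112 of these in every fit that left out 1 library and 103 under every alternative run. Over 2915 alternatives for single results, 2827 kept their side of the threshold, 62 lost a call, 20 gained a call and 6 reversed. A reversal here is a change of sign with a call in either fit, not necessarily in both. Among the 2827 the sign changed in 64 where neither fit called the gene, and no direction was read there. All 6 reversals came from scaling by library totals: PR1b-like in wild type of SGT2ox, 3 h (-0.38), and in the libraries labelled SGT1ami, 24 h (-0.12), the chitinase in SGT2ox, 3 h (-0.19), the glucanase Solyc01g008620 in SGT2ox, 3 h (-0.17), and in wild type of SGT1ami, 24 h (-0.07), and the NPR1 difference between the wild types to 3 h (-0.00). Of these, the chitinase and the glucanase Solyc01g008620 in SGT2ox at 3 h were called in both fits. PR1b-like in wild type of SGT2ox was called only with library totals. The rest were called only as tested, so they are lost calls with no direction read from library totals. Library totals let the median gene move, while size factors hold it. Replicate numbers did not pair the samples: in each experiment all 45 correlations of deviations between same-numbered libraries were between -0.05 and 0.02. The block moved all-gene counts of calls by factors of 0.981 to 0.999 and ended 1 member call, the 3 h rise of Solyc01g008620 in SGT2ox (adjusted p = 0.0535, limma). Leaving out the libraries labelled SGT1ami at 24 h changed no member call among the comparisons that remained. Depth limits PR1a/P4 and Solyc01g060020, which held a few reads per library outside their high groups.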
